A study of Homo sapiens with 60 samples.

Results

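The genes described here are 9 zinc transporters and the zinc sensor MTF1, 10 genes chosen by name from the 60675 gene IDs of the table. Each of the 10 symbols matched 1 ID, and all 10 passed the filter on low counts that left 16644 genes to test. The libraries are bulk RNA-seq of HepG2, a human hepatocellular carcinoma cell line, exposed for 24 h to water extracts of herbs and prescriptions used in Korean medicine. Of the single herbs, Menthae Herba is the mint herb and Saposhnikoviae Radix is the root of a plant of the carrot family. The replicated prescriptions, which combine several herbs, are Soyo-san, Okbyeongpung-san, Saengmaek-san and Guibi-tang. All 6 extracts have 3 libraries at each of the doses 20, 100 and 500 µg/mL, and Soshiho-tang, another prescription, has 1 library per dose. The shared reference is 3 vehicle libraries, which the sample labels give as 0.1% DMSO and the series text as 2% DMSO. All cells are of 1 line with no genetic change named. The series text also says that for an extract with an IC20 under 500 µg/mL the doses were set from that IC20, while the sample labels give 20, 100 and 500 µg/mL throughout. Setting 500 against 20 µg/mL addresses a dose effect inside 1 extract, and setting each dose against vehicle compares cells with and without that extract. The vehicle libraries have a sample code number of their own, and the labels name DMSO for vehicle only. A difference of vehicle from all extract libraries therefore cannot be told apart from an effect of the extracts. Nothing in the labels says that replicates were separate cultures, so the spread behind each p-value is that between these libraries and may be technical.

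Zinc enters the cytosol through the ZIP family (SLC39 genes) and leaves it, to the outside or into organelles, through the ZnT family (SLC30 genes). MTF1 is a transcription factor that binds DNA at metal response elements when zinc in the cell is high, and it switches on the metallothioneins, small zinc-binding proteins, and the exporter SLC30A1. In mouse, MTF1 is also known to hold down the importer Slc39a10, which is released when zinc is scarce. The liver takes up much of the body's zinc and stores part of it on metallothioneins.

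Library totals lay between 20446542 and 32386486 expected counts with a median of 25862356, so that 3 counts correspond to between 0.0926 and 0.147 CPM, the counts scaled to a common library total. Such floors of 3 counts cover counting error only. Of the markers, all 9 of the hepatocyte lineage were expressed, with ALB at a median of 7771 CPM and AFP at 3083 CPM. The fibroblast genes COL1A2, COL3A1, DCN and LUM reached at most 0.208 CPM in any library, and the leukocyte genes PTPRC and CD3E at most 0.0432 CPM. CD14 reached 2.73 CPM, and the endothelial genes PECAM1, CDH5 and VWF at most 5.11 CPM. Reads from mitochondrial genes took 13.02% to 16.42% of counts in the vehicle libraries and 9.04% to 14.3% in the others; the part of this in the comparisons with vehicle was not tested. The libraries fall into 31 with lower MALAT1, a nuclear RNA, at 175 to 283 CPM and 29 with higher MALAT1 at 387 to 552 CPM. Vehicle and both single herbs are wholly in the lower class, Soyo-san, Okbyeongpung-san and Soshiho-tang wholly in the higher, and Saengmaek-san and Guibi-tang are mixed. Against vehicle, the class and the extract therefore cannot be told apart for Soyo-san and Okbyeongpung-san, whereas 500 against 20 µg/mL lies within 1 class for 4 of the 6 extracts. In sample order the class changes once, between Guibi-tang 500 replicate 2 and Guibi-tang 100 replicate 2. The labels do not name what this break stands for. Guibi-tang 500 has 2 lower libraries and 1 higher, and Guibi-tang 20 has 1 lower and 2 higher.

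Compared per length, the importer SLC39A14 stood apart. Its median over the 60 libraries was 126 CPM per kb of exon, followed by SLC30A1 at 17.3, SLC39A6 at 15, SLC30A6 at 10.9, SLC30A9 at 8.2 and SLC30A5 at 7.51 CPM per kb. The lowest medians were those of SLC30A7 at 5, SLC30A10 at 3, MTF1 at 2.4 and SLC39A10 at 2.13 CPM per kb. SLC39A10 was thus the least abundant of the 10 at its median, and it was the one with the widest span. Its highest group mean was 3.42 times its lowest, against 1.82 times for SLC30A1, 1.75 times for SLC30A10 and between 1.11 and 1.32 times for the other 7.

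**Figure D1:**
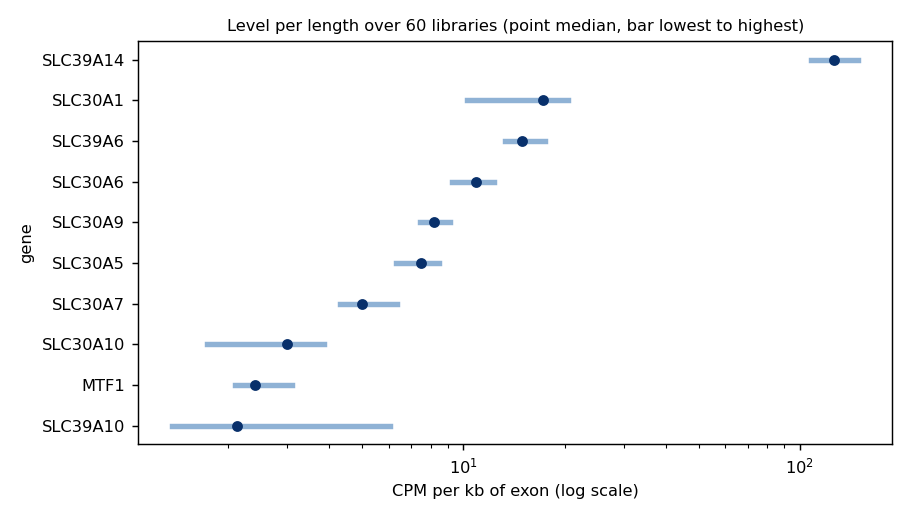
Level of each gene in CPM per kb of exon (log scale), the point being the median and the bar the range from the lowest to the highest of the 60 libraries. SLC39A14 lies far to the right at 126 CPM per kb, and SLC39A10 at the bottom, with a median of 2.13, has the longest bar.

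The promoters of SLC30A1 and SLC39A10 are shown because the levels of these genes moved in opposite directions, and that of MT2A because it belongs to the metallothioneins that fell beside SLC30A1. Each run is the 250 bases before a RefSeq start (GRCh38.p14), written 5′ to 3′ on the strand of the gene. Capitals mark matches on either strand to the core of the metal response element, searched as TGCACNC and TGCGCNC.

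SLC30A1: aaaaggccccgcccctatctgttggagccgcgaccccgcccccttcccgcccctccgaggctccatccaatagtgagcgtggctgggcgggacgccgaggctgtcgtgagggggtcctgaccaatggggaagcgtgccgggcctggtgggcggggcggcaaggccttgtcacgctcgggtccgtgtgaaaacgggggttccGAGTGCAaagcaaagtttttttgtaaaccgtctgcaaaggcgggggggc
MT2A: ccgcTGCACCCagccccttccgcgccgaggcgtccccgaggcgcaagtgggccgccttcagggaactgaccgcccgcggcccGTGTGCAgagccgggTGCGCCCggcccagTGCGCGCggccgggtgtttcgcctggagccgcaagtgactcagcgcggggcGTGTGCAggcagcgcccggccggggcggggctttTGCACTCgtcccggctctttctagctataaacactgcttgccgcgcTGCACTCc
SLC39A10 start 1: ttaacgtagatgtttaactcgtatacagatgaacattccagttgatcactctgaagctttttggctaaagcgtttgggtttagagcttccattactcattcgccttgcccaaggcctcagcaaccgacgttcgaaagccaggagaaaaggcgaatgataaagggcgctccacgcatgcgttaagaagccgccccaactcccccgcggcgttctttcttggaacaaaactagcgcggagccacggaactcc
SLC39A10 start 2: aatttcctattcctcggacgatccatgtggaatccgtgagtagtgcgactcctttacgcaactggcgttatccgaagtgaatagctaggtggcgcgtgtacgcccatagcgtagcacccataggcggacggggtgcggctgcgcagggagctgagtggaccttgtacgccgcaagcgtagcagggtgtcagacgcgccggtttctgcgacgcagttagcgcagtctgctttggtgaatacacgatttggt

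The SLC30A1 run lies at chr1:211579162-211579411 on the minus strand, and its single match, TGCACTC on the reverse strand, begins 49 bases before the start. MT2A, at chr16:56608334-56608583 on the plus strand, holds 7 matches, 5 forward and 2 reverse. Neither SLC39A10 run, at chr2:195656708-195656957 and chr2:195656976-195657225 on the plus strand, holds one. By comparison, 24.8% of the 35114 starts scanned hold at least 1 match within 250 bases and 6.48% hold 2 or more. The table holds 9 of the 10 genes, SLC39A14 not among them, and SLC30A6 and SLC39A6 have 1 match each. A match is a string of letters and no evidence of binding, and a window without one says nothing about the factor. The GENCODE v29 span of SLC30A1 ends at 211578742, short of its run, and that of SLC39A10 begins at 195575977, before both of its runs. The starts of RefSeq and GENCODE v29 thus differ for these genes, and only windows before RefSeq starts were searched.

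SLC39A10, a ZIP importer of the plasma membrane (chr2:195575977-195737702, plus strand, GENCODE v29), was higher at 500 than at 20 µg/mL in 4 of the 6 extracts and higher at 500 µg/mL than in vehicle in all 6. With Menthae Herba it read 13.5, 13.3 and 9.45 CPM in vehicle, 14, 16.1 and 12.3 CPM at 20 µg/mL, 20.4, 20.6 and 20.4 CPM at 100 µg/mL and 41.9, 40.8 and 41.3 CPM at 500 µg/mL. Every library at 100 µg/mL lay above every one at 20 µg/mL, and every library at 500 µg/mL lay far above all at 100 µg/mL. The log2 fold change of 500 against 20 µg/mL was 1.55 ± 0.09 (SE; edgeR quasi-likelihood F test, Benjamini-Hochberg adjusted p = 1.3e-19), a fold of 2.94. In bulk RNA a higher level per cell and more cells carrying the transcript cannot be told apart.

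In 3 of the 4 prescriptions SLC39A10 also rose between doses. With Soyo-san it read 25.3, 25.1 and 23.8 CPM at 500 µg/mL, against 15.4, 13.1 and 12.4 CPM at 20 µg/mL. Saengmaek-san gave 23.5, 23 and 24.1 CPM at 500 µg/mL, against 12.2, 11.9 and 14.1 CPM at 20 µg/mL. For Guibi-tang the values were 18.6, 20.5 and 22.6 CPM at 500 µg/mL, against 11, 14.8 and 14.1 CPM at 20 µg/mL. In none of these 3 prescriptions did the dose groups overlap. The log2 fold changes of 500 against 20 µg/mL were 0.86 ± 0.10 for Soyo-san, 0.89 ± 0.10 for Saengmaek-san and 0.63 ± 0.10 for Guibi-tang (edgeR adjusted p = 2.8e-09, 7.7e-09 and 4.4e-06). Within the lower MALAT1 class the Saengmaek-san libraries read 23 to 23.5 CPM at 500 µg/mL, against 11.9 to 12.2 CPM at 20 µg/mL, and the single libraries of the higher class read 24.1 CPM at 500 µg/mL and 14.1 CPM at 20 µg/mL. In Guibi-tang the lower class read 18.6 to 20.5 CPM at 500 µg/mL, against 11 CPM at 20 µg/mL, and the higher class 22.6 CPM at 500 µg/mL, against 14.1 to 14.8 CPM at 20 µg/mL. The direction was therefore the same in both classes of both prescriptions.

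The other 2 extracts missed the threshold between doses. Saposhnikoviae Radix gave 17, 14.8 and 16.1 CPM at 500 µg/mL, against 12.4, 12.8 and 12.4 CPM at 20 µg/mL, a log2 fold change of 0.35 ± 0.10 (edgeR adjusted p = 0.12). Okbyeongpung-san gave 15.4, 16 and 17 CPM at 500 µg/mL, against 11.9, 13.7 and 14.4 CPM at 20 µg/mL, a log2 fold change of 0.27 ± 0.10 (edgeR adjusted p = 0.87). In both, the doses did not overlap although the fold was small. The means rose in order from 20 over 100 to 500 µg/mL in all 6 extracts. Over the 19 replicated groups Menthae Herba 500 was highest at 41.3 ± 0.512 CPM (SD, n = 3) and vehicle lowest at 12.1 ± 2.29 CPM. Soyo-san 500 and Saengmaek-san 500 came next at 24.7 ± 0.812 and 23.5 ± 0.553 CPM and overlapped each other, as did Guibi-tang 500 and Menthae Herba 100 at 20.6 ± 2.03 and 20.4 ± 0.1 CPM. From Okbyeongpung-san 500 at 16.1 ± 0.794 CPM downward, each group overlapped the next.

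Against vehicle, the log2 fold change of SLC39A10 at 500 µg/mL was 1.77 ± 0.10 for Menthae Herba, 1.03 ± 0.10 for Soyo-san, 0.95 ± 0.10 for Saengmaek-san and 0.76 ± 0.10 for Guibi-tang (edgeR adjusted p at most 7e-08). It was 0.41 ± 0.10 for Okbyeongpung-san and 0.40 ± 0.10 for Saposhnikoviae Radix (edgeR adjusted p = 0.0067 and 0.011). These last 2 rest in part on vehicle replicate 3, the lowest of the 60 libraries at 9.45 CPM. Without it both were 0.26 and missed the threshold, and the Saposhnikoviae Radix call was also lost without its replicate 1 at 500 µg/mL (0.36). With the MALAT1 class as a covariate the Okbyeongpung-san value was 0.23 and missed it too. At 100 µg/mL Menthae Herba alone was called, at 0.75 ± 0.10 (edgeR adjusted p = 1.8e-07).

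**Figure D2:**
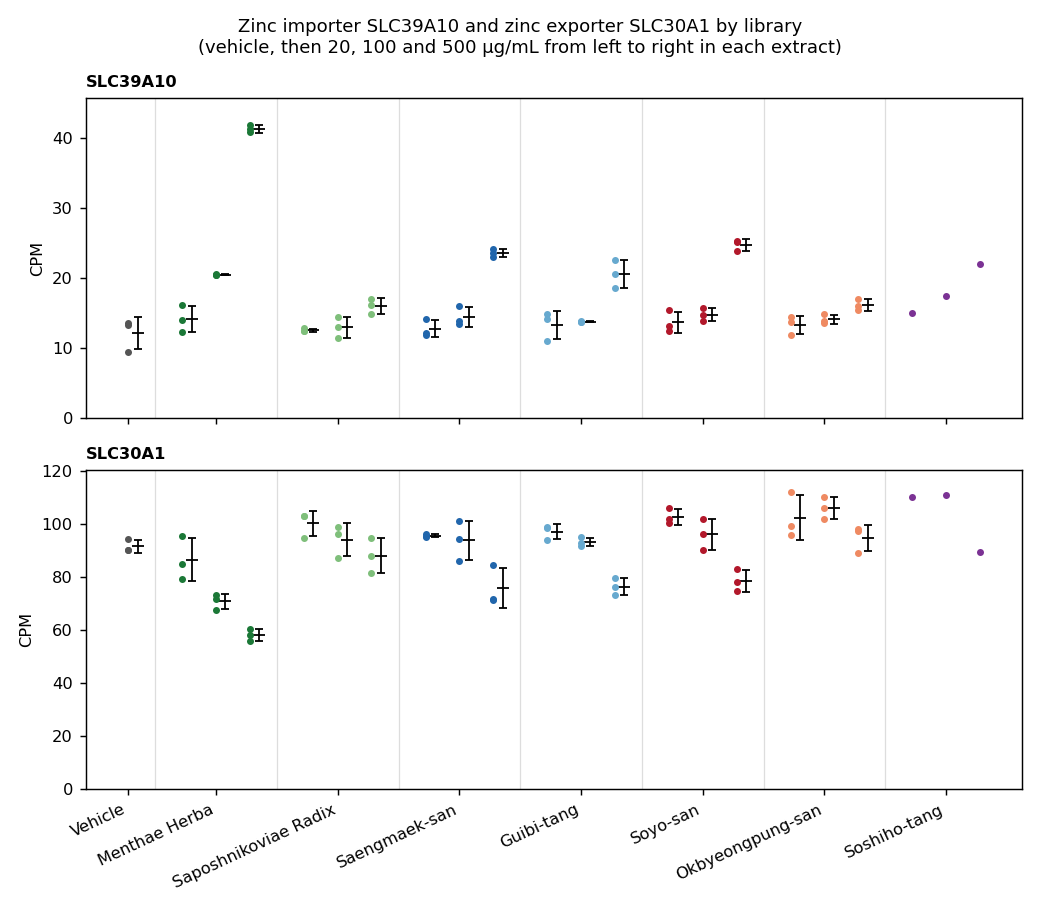
CPM of SLC39A10 (top) and SLC30A1 (bottom) in each of the 60 libraries. Points are libraries, in vehicle and then at 20, 100 and 500 µg/mL from left to right within each extract, and bars give the mean ± SD of 3 libraries (none for Soshiho-tang). The Menthae Herba 500 libraries sit between 40.8 and 41.9 CPM for SLC39A10, above all others, and between 56 and 60.4 CPM for SLC30A1, below all others.

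SLC39A6, a ZIP importer that forms a complex with SLC39A10, moved little. It read 57.9, 59.8 and 60.4 CPM with Menthae Herba at 500 µg/mL, against 53.6, 55.2 and 49 CPM at 20 µg/mL. These doses did not overlap, and the log2 fold change of 0.18 ± 0.06 (edgeR adjusted p = 0.010) was lost without replicate 3 at 20 µg/mL (0.14). Between doses the other 5 extracts gave log2 fold changes of -0.01 to 0.12, none called. Against vehicle at 57.8, 53.3 and 50.2 CPM the Menthae Herba 500 groups did not overlap either, with a log2 fold change of 0.14 ± 0.06 (edgeR adjusted p = 0.037). That call was lost without vehicle replicate 2 or 3 (0.14 and 0.10) and without Menthae Herba 500 replicate 2 or 3 (0.14 and 0.13). The gene lies at chr18:36108532-36129385 on the minus strand.

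SLC39A14, a ZIP importer of zinc, iron and manganese that is abundant in liver (chr8:22367249-22434129, plus strand), was higher than in vehicle in 4 of 6 extracts at 500 µg/mL. It read 1034, 1001 and 1031 CPM with Menthae Herba, against 767, 791 and 809 CPM in vehicle, a log2 fold change of 0.37 ± 0.06 (edgeR adjusted p = 1.3e-06). All of these Menthae Herba libraries lay above all vehicle libraries, as did those of Saposhnikoviae Radix at 982, 939 and 989.8 CPM (log2 fold change 0.30 ± 0.06, edgeR adjusted p = 0.0012). Saposhnikoviae Radix was already at 947, 975 and 941 CPM at 20 µg/mL (0.27 ± 0.06 against vehicle, edgeR adjusted p = 0.0045), and its 500 against 20 µg/mL was 0.03 ± 0.06 (edgeR adjusted p = 0.97). At 100 µg/mL Menthae Herba and Saposhnikoviae Radix were 0.23 ± 0.06 and 0.22 ± 0.06 above vehicle (edgeR adjusted p = 0.0064 and 0.021), the Saposhnikoviae Radix call being lost without vehicle replicate 1 (0.20) or its own replicate 1 or 2 (0.22 and 0.20). Menthae Herba was the one extract called between doses, 0.20 ± 0.06 (edgeR adjusted p = 0.0082), lost without replicate 3 at 20 µg/mL (0.16). The Saengmaek-san value against vehicle, 0.21 ± 0.06, was lost without vehicle replicate 1 (0.19) or without its own replicate 1 at 500 µg/mL (0.13). For Soyo-san the value of 0.16 ± 0.06 was lost when any 1 of the 6 libraries compared was left out (0.14 to 0.18). Guibi-tang gave -0.03 against vehicle, and its libraries read 814, 750.0 and 752 CPM. By MALAT1 class, Saengmaek-san read 905 to 1016 CPM (lower) and 825 CPM (higher) at 500 µg/mL. At 20 µg/mL it read 878 CPM (lower) and 814 CPM (higher). Guibi-tang read 899.5 CPM (lower) and 803 to 856 CPM (higher) at 20 µg/mL. At 500 µg/mL its classes overlapped, at 750.0 to 814 CPM and 752 CPM. All vehicle libraries are of the lower class.

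SLC30A1, the zinc exporter of the plasma membrane (chr1:211571568-211578742, minus strand), ran opposite to SLC39A10. With Menthae Herba it read 94.5, 90.1 and 90.1 CPM in vehicle, 95.4, 84.8 and 79.4 CPM at 20 µg/mL, 73.3, 67.7 and 71.7 CPM at 100 µg/mL and 60.4, 56 and 58 CPM at 500 µg/mL. Each step of dose from 20 µg/mL on left no overlap with the one before it. The log2 fold change of 500 against 20 µg/mL was -0.57 ± 0.07 (edgeR adjusted p = 3.6e-10).

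Soyo-san gave 83, 78 and 74.8 CPM of SLC30A1 at 500 µg/mL, against 106, 100.3 and 102 CPM at 20 µg/mL. With Guibi-tang it read 79.6, 73.2 and 76.3 CPM at 500 µg/mL, against 94, 98.5 and 99 CPM at 20 µg/mL. Saengmaek-san gave 84.6, 71.3 and 71.6 CPM at 500 µg/mL, against 95.5, 95.3 and 96.2 CPM at 20 µg/mL. All 3 prescriptions kept their doses apart, with log2 fold changes of -0.39 ± 0.06, -0.35 ± 0.06 and -0.34 ± 0.06 (edgeR adjusted p = 1.8e-05, 0.00012 and 0.00084). The Saengmaek-san call was lost in a fit of only the groups compared, at the same -0.34. Within the lower MALAT1 class Saengmaek-san read 71.3 to 84.6 CPM at 500 µg/mL, against 95.3 to 95.5 CPM at 20 µg/mL, and Guibi-tang 73.2 to 79.6 CPM at 500 µg/mL, against 94 CPM at 20 µg/mL. Saposhnikoviae Radix and Okbyeongpung-san gave -0.18 ± 0.06 and -0.11 ± 0.06 (edgeR adjusted p = 0.32 and 0.99).

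Against vehicle, SLC30A1 was lower at 500 µg/mL in the same 4 extracts, by log2 fold changes of -0.65 ± 0.07 for Menthae Herba, -0.27 ± 0.06 for Saengmaek-san, -0.26 ± 0.06 for Guibi-tang and -0.22 ± 0.06 for Soyo-san (edgeR adjusted p = 4.8e-12, 0.0027, 0.0033 and 0.010). The Soyo-san value was -0.15 and not called on plain library totals, and -0.19 and not called without vehicle replicate 1 or without its replicate 3 at 500 µg/mL. Menthae Herba was also lower at 100 µg/mL, by -0.37 ± 0.06 (edgeR adjusted p = 5.9e-05). Okbyeongpung-san 100 was the exception in direction, at 102, 106 and 110.1 CPM, with a log2 fold change of 0.21 ± 0.06 (edgeR adjusted p = 0.022). That call was lost without vehicle replicate 2 or 3 (0.19 each) and without Okbyeongpung-san replicate 2 or 3 (0.20 and 0.18).

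The ratio of SLC39A10 to SLC30A1 within a library puts importer and exporter together, free of the scaling of library totals. It was 0.712 ± 0.0182 for Menthae Herba 500 (SD, n = 3), 0.315 ± 0.00874 for Soyo-san 500, 0.312 ± 0.0308 for Saengmaek-san 500 and 0.270 ± 0.0327 for Guibi-tang 500, against 0.132 ± 0.0235 in vehicle. Saposhnikoviae Radix 500 stood at 0.181 ± 0.00207 and Okbyeongpung-san 500 at 0.170 ± 0.0173. The highest vehicle library, at 0.148, lay below the lowest library of each of these 6 groups. The 6 groups at 20 µg/mL lay between 0.125 and 0.164 in their means.

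SLC30A10 (chr1:219685427-219958647, minus strand), known chiefly as the manganese exporter of liver cells, also fell between doses in 3 extracts. It read 11.5, 10.8 and 10 CPM with Menthae Herba at 500 µg/mL, against 17, 18.4 and 15.9 CPM at 20 µg/mL. Guibi-tang gave 13, 13.9 and 14.3 CPM at 500 µg/mL, against 18.8, 20.5 and 16.2 CPM at 20 µg/mL. For Soyo-san the values were 14.5, 13.6 and 12.8 CPM at 500 µg/mL, against 18.2, 17.8 and 17.1 CPM at 20 µg/mL. None of these 3 pairs overlapped, and the log2 fold changes were -0.66 ± 0.08, -0.42 ± 0.07 and -0.38 ± 0.08 (edgeR adjusted p = 4.1e-10, 4.6e-05 and 0.00035).

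In Saengmaek-san, where SLC30A1 fell, SLC30A10 read 18.6, 17.6 and 16.8 CPM at 500 µg/mL, against 17.3, 19 and 20 CPM at 20 µg/mL. These overlapped, with a log2 fold change of -0.09 ± 0.07 (edgeR adjusted p = 0.68). Menthae Herba 500 at 10.8 ± 0.728 CPM was below every other group, and its 100 µg/mL group at 16.1 ± 0.817 CPM overlapped vehicle at 15.9 ± 0.693 CPM. Against vehicle the log2 fold change at 500 µg/mL was -0.56 ± 0.08 for Menthae Herba (edgeR adjusted p = 3.5e-08) and -0.22 ± 0.08 for Soyo-san (edgeR adjusted p = 0.032). The Soyo-san value was not called on plain library totals (-0.14), nor without vehicle replicate 2 or 3 (-0.21 and -0.19) or Soyo-san 500 replicate 2 or 3 (-0.21 and -0.18). Saengmaek-san at 20 µg/mL and Okbyeongpung-san at 100 µg/mL were each 0.25 ± 0.07 above vehicle (edgeR adjusted p = 0.049 and 0.017). The Saengmaek-san call was lost without any 1 of the 3 vehicle libraries (0.21 to 0.27) or its own replicate 2 or 3 (0.23 and 0.19). The Okbyeongpung-san call was lost without vehicle replicate 1 or 2 (0.21 and 0.25) or its own replicate 3 (0.17).

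SLC30A5, SLC30A6 and SLC30A7 load zinc into the secretory pathway, SLC30A5 and SLC30A6 as a pair, and SLC30A9 is a zinc exporter of mitochondria. SLC30A7 (chr1:100896076-100981753, plus strand) read 46.9, 47 and 47.5 CPM with Menthae Herba at 500 µg/mL, against 40.2, 40.9 and 37.4 CPM at 20 µg/mL, without overlap. The log2 fold change was 0.26 ± 0.08 (edgeR adjusted p = 0.0063). SLC30A5 (chr5:69093646-69131069, plus strand) read 45.6, 45 and 47.1 CPM, against 41, 43.3 and 36.5 CPM, in the same groups. Its log2 fold change of 0.19 ± 0.06 (edgeR adjusted p = 0.012) was lost without replicate 3 at 20 µg/mL (0.13). An antisense gene shares exon bases with SLC30A5, and since the strand used in counting is not given in the sources used here, reads of the pair cannot be told apart.

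Against vehicle at 38.6 ± 2.11 CPM, the lowest of the 19 groups, SLC30A5 was higher at 500 µg/mL with Soyo-san, Saengmaek-san and Menthae Herba, by log2 fold changes of 0.28 ± 0.06, 0.26 ± 0.06 and 0.25 ± 0.06 (edgeR adjusted p = 0.00051, 0.0028 and 0.00085). Menthae Herba was higher at 100 µg/mL too, by 0.23 ± 0.06 (edgeR adjusted p = 0.0082). Further calls of SLC30A5 were weaker: Soyo-san and Okbyeongpung-san at 100 µg/mL, each 0.20 ± 0.06 and overlapping vehicle, and Okbyeongpung-san at 20 µg/mL, 0.24 ± 0.06. Each of these 3 calls was lost without vehicle replicate 2 or 3, at 0.16 to 0.22. Soyo-san 100 was also lost without its replicate 1 or 3 (0.21 and 0.13), Okbyeongpung-san 100 without its replicate 2 or 3 (0.16 and 0.14) and Okbyeongpung-san 20 without its replicate 3 (0.18). SLC30A7 was higher than vehicle at 500 µg/mL with Soyo-san (0.34 ± 0.08, edgeR adjusted p = 0.00064) and Menthae Herba (0.27 ± 0.08, edgeR adjusted p = 0.0033), and with Okbyeongpung-san at 100 µg/mL (0.28 ± 0.08, edgeR adjusted p = 0.0096). With the MALAT1 class as a covariate the Soyo-san value was 0.17 and the Okbyeongpung-san value 0.11, neither called. The Okbyeongpung-san call was also lost without vehicle replicate 3 (0.25) or its own replicate 3 (0.18).

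MTF1, the sensor itself (chr1:37809567-37859620, minus strand), SLC30A6 (chr2:32165841-32224379, plus strand) and SLC30A9 (chr4:41990472-42090457, plus strand) were called in none of the 27 contrasts by edgeR. Unadjusted p-values under 0.05 numbered 1 for MTF1, 1 for SLC30A6 and 4 for SLC30A9, and DESeq2 called 0, 0 and 1 of the 27. With Menthae Herba MTF1 read 17.2, 19.2 and 18.6 CPM at 500 µg/mL, against 18.6, 18.6 and 18.7 CPM at 20 µg/mL and 20.8, 19.7 and 20 CPM in vehicle. The dose groups overlapped, with a log2 fold change of -0.02 ± 0.08 (edgeR adjusted p = 0.87). Over all contrasts the log2 fold changes of MTF1 ran from -0.18 to 0.14, and its group means from 17.7 ± 0.185 CPM in Guibi-tang 500 to 21.2 ± 1.36 CPM in Soyo-san 20. SLC30A6 and SLC30A9 stayed within 50.2 to 66.6 CPM and 53.6 to 65.9 CPM over the 60 libraries. The mRNA level of MTF1 does not measure its binding to DNA.

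**Figure D3:**
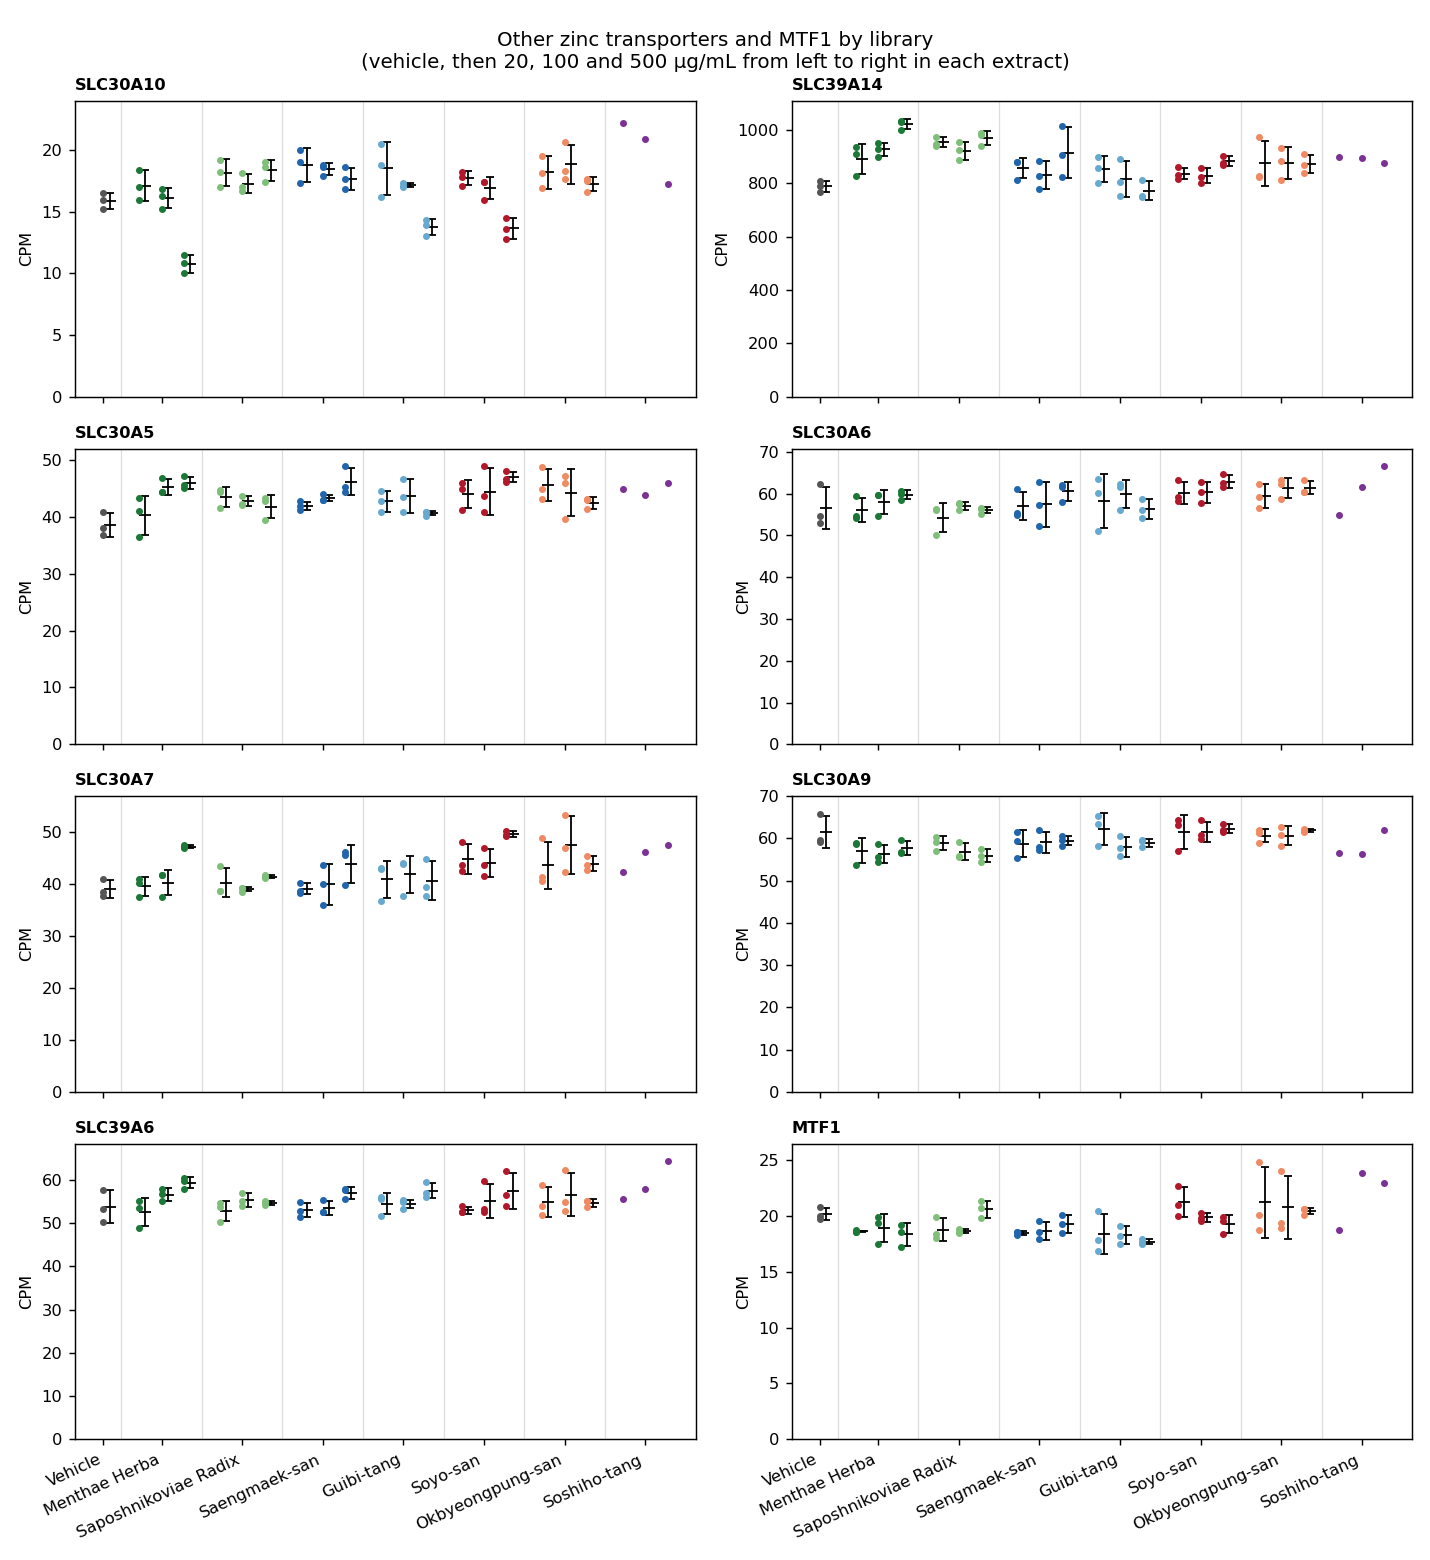
CPM of the other 8 genes in each of the 60 libraries, in vehicle and then at 20, 100 and 500 µg/mL from left to right within each extract, with mean ± SD of 3 libraries. SLC30A10 drops to 10.8 CPM in Menthae Herba 500, while MTF1 stays between 16.9 and 24.8 CPM.

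Counted over the 10 genes and 6 extracts, 15 of 60 differences between 500 and 20 µg/mL were called, 8 higher and 7 lower, where 8.37% of all differences of tested genes were called, 4.43% higher and 3.93% lower. SLC39A10 and SLC30A1 gave 4 calls each and SLC30A10 gave 3, and the remaining 4 were single calls in Menthae Herba. Menthae Herba accounted for 7 of its 10 genes where 32.1% of all genes were called. Guibi-tang and Soyo-san had 3 each, with 8.12% and 7.58% of all genes called, and Saengmaek-san had 2, with 1.96% called. In Saposhnikoviae Radix and Okbyeongpung-san edgeR called none of the 10, with 0.397% and 0.0240% of all genes called. There the unadjusted p was under 0.05 for 2 and 1 of the genes, and DESeq2 called 1 and 0. The median log2 fold change of the 10 genes lay between -0.06 and 0.13 over the 6 extracts, against -0.01 to 0.00 for all genes.

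Against vehicle the share called grew with dose. At 20 µg/mL 3 of 60 differences were called, all higher, beside 5.44% of all tested differences, 2.50% higher and 2.94% lower. At 100 µg/mL 10 of 60 were called, 9 higher and 1 lower, beside 9.13% of all, 4.14% higher and 4.99% lower. At 500 µg/mL 22 of 60 were called, 16 higher and 6 lower, beside 17.0% of all, 8.25% higher and 8.80% lower. At 20 µg/mL the share of the 10 genes was near that of all genes. By extract at 500 µg/mL, 7 of the 10 genes were called for Menthae Herba beside 39.8% of all genes, and 6 for Soyo-san beside 21.5%. Saengmaek-san had 4 beside 12.6%, Guibi-tang 2 beside 13.4%, Saposhnikoviae Radix 2 beside 5.80% and Okbyeongpung-san 1 beside 9.11%. At 100 µg/mL Menthae Herba and Okbyeongpung-san had 4 each, beside 14.0% and 12.9% of all genes, and Saposhnikoviae Radix and Soyo-san 1 each, beside 5.47% and 8.31%. Saengmaek-san 100 and Guibi-tang 100 had none by edgeR, beside 6.05% and 7.96%, with 3 and 1 genes at an unadjusted p under 0.05 and 0 by DESeq2 in both. At 20 µg/mL Saposhnikoviae Radix, Saengmaek-san and Okbyeongpung-san had 1 each, beside 7.19%, 3.37% and 6.99%. Menthae Herba 20, Guibi-tang 20 and Soyo-san 20 had none by edgeR, beside 6.83%, 4.38% and 3.88%, with 3, 2 and 4 genes at an unadjusted p under 0.05 and 1, 0 and 0 by DESeq2. The 6 comparisons at a dose share the same 3 vehicle libraries, so their calls are not independent. On plain library totals the calls at 500 µg/mL were 26 higher and 4 lower, a scaling that moved the median of all genes by up to 0.11 on the log2 scale.

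**Figure D4:**
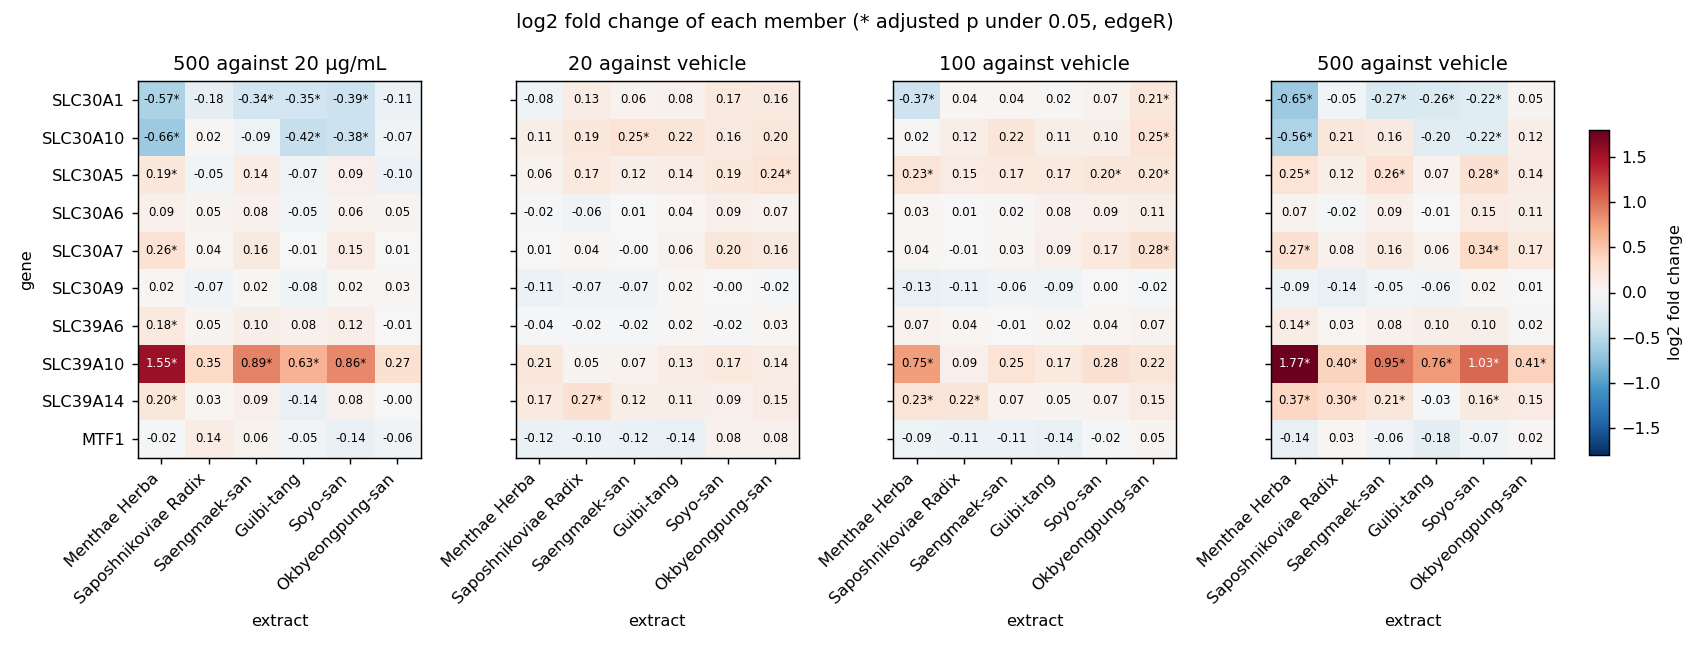
Log2 fold change of each gene in each of 6 extracts for 500 against 20 µg/mL and for 20, 100 and 500 µg/mL against vehicle; red is higher and blue lower in the group named first, and an asterisk marks an edgeR adjusted p under 0.05. At 500 µg/mL against vehicle the SLC39A10 row is red with an asterisk in all 6 extracts and the SLC30A1 row blue with an asterisk in 4.

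Whether extracts differ in the change between 500 and 20 µg/mL was tested as an interaction for 3 pairs that share the first number of the submitters' sample code. Of the 30 differences of differences 5 were called, 3 positive and 2 negative, beside 7.84% of all tested, 4.11% positive and 3.72% negative. Menthae Herba against Saposhnikoviae Radix gave 4, beside 20.0% of all genes, Soyo-san against Okbyeongpung-san 1, beside 2.36%, and Guibi-tang against Saengmaek-san none, beside 1.15%. Menthae Herba exceeded Saposhnikoviae Radix by 1.20 ± 0.14 on the log2 scale for SLC39A10 (edgeR adjusted p = 1e-09). For SLC30A10 the difference was -0.68 ± 0.10 (edgeR adjusted p = 1.3e-06), for SLC30A1 -0.39 ± 0.09 (edgeR adjusted p = 0.0012) and for SLC30A5 0.24 ± 0.09 (edgeR adjusted p = 0.036). Soyo-san exceeded Okbyeongpung-san by 0.58 ± 0.14 for SLC39A10 (edgeR adjusted p = 0.011). That call was lost without Okbyeongpung-san 20 replicate 3 (0.53), and the SLC30A5 call was lost without any 1 of 5 libraries (0.18 to 0.23), namely Menthae Herba 500 replicate 3 or 20 replicate 3, or Saposhnikoviae Radix 500 replicate 2 or 20 replicate 2 or 3. Between Guibi-tang and Saengmaek-san edgeR called none of the 10 genes, the unadjusted p was under 0.05 for 3, and DESeq2 called 0. There SLC39A10 differed by -0.25 ± 0.14 (edgeR adjusted p = 0.54) and SLC30A10 by -0.33 ± 0.10 (edgeR adjusted p = 0.11).

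The metallothioneins are given as the best known output of zinc sensing. Of the 11 listed, 7 were tested, and in 500 against 20 µg/mL all 7 fell in Menthae Herba, Saengmaek-san, Guibi-tang and Soyo-san and 6 fell in Saposhnikoviae Radix. The shares of all genes called were 32.1%, 1.96%, 8.12%, 7.58% and 0.397% in the same order. DESeq2 called 5 to 7 of the 7 in these 5 extracts, with up to 2 left without an adjusted p. In Okbyeongpung-san edgeR and DESeq2 called 0 of the 7, beside 0.0240% of all genes by edgeR, and 5 had an unadjusted p under 0.05. MT1G averaged 2.56 ± 0.293 CPM in Menthae Herba 500, against 39.1 ± 5.71 CPM in Menthae Herba 20, a log2 fold change of -3.93 ± 0.21 (edgeR adjusted p = 6.9e-19). MT1F averaged 1.75 ± 0.132 CPM, against 20.2 ± 1.85 CPM, in the same groups. MT1M was scarce throughout, with at most 1.65 CPM in any library, and lay below the level of 3 counts in Menthae Herba 500 at 0.0386 ± 0.00364 CPM. MT2A, the most abundant of the 7, fell less than MT1G in Menthae Herba. It averaged 60.1 ± 3.99 CPM at 500 µg/mL, against 132 ± 13.7 CPM at 20 µg/mL. Its log2 fold change was -1.14 ± 0.17 (edgeR adjusted p = 5.8e-07). The difference from Saposhnikoviae Radix in this change was -0.15 ± 0.23 (edgeR adjusted p = 0.73). For MT1E, MT1F, MT1G and MT1X that difference was called (-1.82 to -2.94), beside 20.0% of all genes. Single metallothioneins are close copies of each other, so the sum of the 7 is given too, and MT2A weighs most in it.

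That sum was 79.6 ± 4.76 CPM in Menthae Herba 500, 113 ± 26.3 CPM in Saengmaek-san 500, 142 ± 5.74 CPM in Soyo-san 500, 184 ± 15.4 CPM in Guibi-tang 500, 198 ± 33.1 CPM in Saposhnikoviae Radix 500 and 313 ± 22.7 CPM in Okbyeongpung-san 500, against 439 ± 14 CPM in vehicle. The order of the 500 µg/mL groups in this sum was not quite the reverse of that in SLC39A10. Soyo-san 500 and Saengmaek-san 500 changed places, and so did Saposhnikoviae Radix 500 and Okbyeongpung-san 500. The SLC39A10 libraries overlapped within each of these pairs, so their order there is not resolved. They read 23.8 to 25.3 CPM against 23 to 24.1 CPM, and 14.8 to 17 CPM against 15.4 to 17 CPM. The sums did not overlap within either pair, at 136 to 148 CPM against 82.5 to 131 CPM, and 167 to 233 CPM against 287 to 330.2 CPM. Guibi-tang 500 and Saposhnikoviae Radix 500 overlapped in the sum, at 166 to 195 CPM and 167 to 233 CPM. In SLC39A10 they did not, at 18.6 to 22.6 CPM and 14.8 to 17 CPM. Saengmaek-san 500 replicate 1 stood apart from its group, with 82.5 CPM of metallothioneins against 124 and 131 CPM, and with 84.6 CPM of SLC30A1 against 71.3 and 71.6 CPM. It thus had the lowest metallothionein sum and the highest SLC30A1 of the 3.

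**Figure D5:**
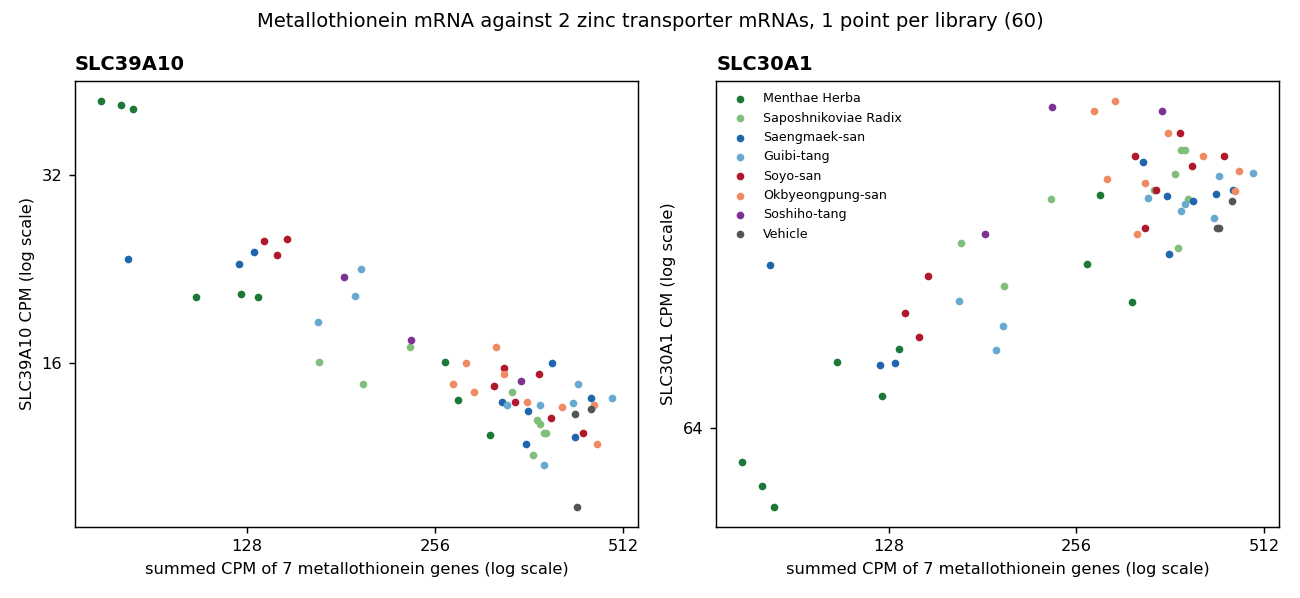
Summed CPM of 7 metallothionein genes (x axis, log scale) against CPM of SLC39A10 (left) and SLC30A1 (right, both log scale), 1 point per library, coloured by extract. SLC39A10 runs down and SLC30A1 up along the metallothionein axis, and the Menthae Herba 500 libraries lie at the far left with sums of 74.5 to 84 CPM, beside 1 Saengmaek-san 500 library at 82.5 CPM.

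Over the 18 extract and dose group means, each taken as a deviation from the mean of its first code number, the metallothionein sum had a Pearson r of -0.95 with SLC39A10, 0.95 with SLC30A1, 0.72 with SLC30A10 and 0.15 with MTF1. SLC39A10 and SLC30A1 had an r of -0.97 with each other and SLC30A1 and SLC30A10 one of 0.87. These are descriptions over groups that share a dose series within each extract, and the 500 µg/mL groups set much of the spread. Among the 10670 named genes at a mean of 5 CPM or more, those most opposite to SLC39A10 were MT1G (-0.992), MT1X (-0.990) and MT1F (-0.989). Those most like SLC39A10 were MTCL1 (0.985), QSOX2 (0.982), SEMA3G (0.982), GPI (0.981) and TMCC1 (0.980). For SLC30A1 the most like were MT1X (0.977), MT1F (0.975), MT1G (0.972), MT1E (0.967) and GPC6 (0.964), and the most opposite NEDD9 (-0.986), MT-RNR1 (-0.977) and SLC39A10 (-0.971). Without the single herbs, over 12 group means, MT1X and MT1F were the first and the second most opposite to SLC39A10 (-0.990 each), and SLC39A10 stayed the third most opposite to SLC30A1 (-0.977). NEDD9 also stayed the most opposite to SLC30A1 (-0.982), while MT-RNR1 moved to place 37 (-0.944). Among the genes most like SLC39A10, MTCL1 moved to place 5 and GPI to place 12, and among those most like SLC30A1, MT1E moved to place 12 and GPC6 to place 14. This selection of groups was chosen after seeing the data.

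Of 15 other zinc transporters, 10 were tested. In 500 against 20 µg/mL 5 rose and 1 fell in Menthae Herba, 2 rose in Soyo-san, 1 rose and 2 fell in Guibi-tang, and 1 rose and 1 fell in Saengmaek-san. These counts stand beside 32.1%, 7.58%, 8.12% and 1.96% of all genes called in the same order. In Saposhnikoviae Radix and Okbyeongpung-san edgeR and DESeq2 called 0 of the 10, beside 0.397% and 0.0240% of all genes by edgeR. In Saposhnikoviae Radix DESeq2 left 2 of the 10 without an adjusted p. In both extracts 1 gene, SLC39A4, had an unadjusted p under 0.05. SLC39A4, the ZIP importer whose loss causes the zinc deficiency disease acrodermatitis enteropathica, was among those that rose in each of the other 4 extracts. It averaged 191 ± 0.691 CPM in Menthae Herba 500, against 115 ± 5.23 CPM in Menthae Herba 20 (log2 fold change 0.73 ± 0.07, edgeR adjusted p = 9.1e-13). Its log2 fold changes were 0.59 ± 0.07 for Soyo-san, 0.57 ± 0.07 for Saengmaek-san and 0.35 ± 0.07 for Guibi-tang (edgeR adjusted p at most 0.0003). SLC39A11, another ZIP member, rose in Menthae Herba (0.36 ± 0.08, edgeR adjusted p = 0.00028) and Soyo-san (0.26 ± 0.08, edgeR adjusted p = 0.038) and fell in Guibi-tang (-0.29 ± 0.08, edgeR adjusted p = 0.021). SLC30A3, best known from synaptic vesicles, fell in Saengmaek-san to 0.921 ± 0.087 CPM at 500 µg/mL, against 1.76 ± 0.0523 CPM at 20 µg/mL (edgeR adjusted p = 0.0047). It also fell in Menthae Herba, to 1.07 ± 0.428 CPM, against 1.61 ± 0.273 CPM, with overlapping groups (edgeR adjusted p = 0.015). The median log2 fold change of the 10 was between -0.04 and 0.09 over the extracts, against -0.01 to 0.00 for all genes.

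Among 11 tested genes of iron, copper and other metal transport, 5 rose and 3 fell in Menthae Herba between 500 and 20 µg/mL, beside 32.1% of all genes called. In Soyo-san 2 rose (7.58% of all genes called), in Guibi-tang 1 rose and 1 fell (8.12%), in Saengmaek-san 1 rose (1.96%) and in Saposhnikoviae Radix 2 fell (0.397%). In Okbyeongpung-san edgeR and DESeq2 called 0 of the 11, beside 0.0240% of all genes by edgeR, and 0 had an unadjusted p under 0.05. TFRC, the transferrin receptor for iron uptake, rose in Menthae Herba to 576 ± 11.7 CPM at 500 µg/mL, against 406 ± 50.9 CPM at 20 µg/mL (log2 fold change 0.50 ± 0.07, edgeR adjusted p = 1.1e-08). It rose also in Saengmaek-san (0.30 ± 0.07) and Soyo-san (0.21 ± 0.07) and fell in Saposhnikoviae Radix (-0.47 ± 0.07). SLC40A1, the iron exporter ferroportin, rose in Menthae Herba (0.45 ± 0.04) and Guibi-tang (0.18 ± 0.04) and fell in Saposhnikoviae Radix (-0.28 ± 0.04). CCS, the copper chaperone for superoxide dismutase, fell in Menthae Herba (-0.34 ± 0.09) and Guibi-tang (-0.30 ± 0.09).

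Of 7 tested genes of metal and oxidative stress, 2 rose and 4 fell in Menthae Herba between 500 and 20 µg/mL, beside 32.1% of all genes called. Between these doses, calls elsewhere were all higher, 3 in Guibi-tang, 2 each in Soyo-san and Saengmaek-san and 1 in Saposhnikoviae Radix. They stand beside 8.12%, 7.58%, 1.96% and 0.397% of all genes. In Okbyeongpung-san edgeR and DESeq2 called 0 of the 7, beside 0.0240% of all genes by edgeR, and 3 had an unadjusted p under 0.05. GCLM and GCLC encode the subunits of the rate-limiting enzyme of glutathione synthesis. GCLM rose between 500 and 20 µg/mL in 5 of the 6 extracts, by log2 fold changes of 0.37 ± 0.06 to 0.53 ± 0.06, and GCLC in 4, by 0.17 ± 0.05 to 0.69 ± 0.05. HMOX1, the heme oxygenase that many metals and oxidants induce, fell in Menthae Herba to 47.6 ± 2.4 CPM at 500 µg/mL, against 63.1 ± 1.77 CPM at 20 µg/mL (log2 fold change -0.41 ± 0.06, edgeR adjusted p = 4.5e-07). It rose in Guibi-tang (0.25 ± 0.06, edgeR adjusted p = 0.0046) and was not called in the other 4. The others that fell in Menthae Herba were the heat shock chaperones HSPA1A (-0.53 ± 0.08) and HSPA1B (-0.48 ± 0.09), near-identical copies whose reads may be split between them, and their partner DNAJB1 (-0.25 ± 0.04). Against vehicle at 500 µg/mL, 4 of 7 were lower and 2 higher in Saengmaek-san and Soyo-san, beside 12.6% and 21.5% of all genes. Guibi-tang had 3 lower and 3 higher (13.4%), and Okbyeongpung-san 4 lower and 1 higher (9.11%). Menthae Herba had 5 lower and 2 higher (39.8%), and Saposhnikoviae Radix 1 lower and 2 higher (5.80%). These lower values were not particular to the top dose. In each of the 4 replicated prescriptions BAG3, DNAJB1, HSPA1A and HSPA1B were called lower than vehicle at 20 and at 100 µg/mL. All genes called were 3.37% to 6.99% at 20 µg/mL and 6.05% to 12.9% at 100 µg/mL. None of these 4 genes was called between 500 and 20 µg/mL there. At 20 µg/mL Menthae Herba had 1 lower (6.83%) and Saposhnikoviae Radix 2 (7.19%). DNAJB1 was below vehicle in all 6 extracts already at 20 µg/mL, by -0.21 to -0.35 (edgeR adjusted p at most 0.0017).

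Soshiho-tang has 1 library per dose, so its values carry no replicate check. SLC39A10 read 15, 17.4 and 22 CPM at 20, 100 and 500 µg/mL, SLC30A1 110.2, 111 and 89.3 CPM, and SLC30A10 22.2, 20.9 and 17.2 CPM. The metallothionein sum read 351, 234 and 183 CPM at the same doses. At 500 µg/mL its SLC39A10 lay within the range of Guibi-tang 500 (18.6 to 22.6 CPM) and its SLC30A1 within that of Saposhnikoviae Radix 500 (81.7 to 94.7 CPM). MTF1 read 18.7, 23.8 and 22.9 CPM.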

How the data were processed

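RNA of 60 HepG2 libraries was prepared with a stranded (directional) kit and sequenced as paired ends, per the labels' protocols. The submitters' processing notes name FastQC 0.11.9, Trim Galore 0.6.5, STAR 2.7.3a, RSEM 1.3.3 and the GRCh38 build, without their settings. The authors deposited 1 table of expected counts per gene for all libraries, of which 71.9% of nonzero values were whole within 1e-06. They were rounded to whole numbers here. Of 60675 gene IDs, 56558 had a symbol in the name table. Positions and exon lengths come from GENCODE v29 and promoters from RefSeq GRCh38.p14.

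CPM were computed on library totals scaled by the trimmed mean of M-values (TMM), and CPM per kb divides them by the union of exons. Only the level of 3 counts is on plain totals. Genes were kept by edgeR's filterByExpr with a minimum count of 10, which left 16644. The 57 libraries of 19 groups were fitted together with edgeR 4.0.16 in R 4.3.3 (robust quasi-likelihood F test, Benjamini-Hochberg adjustment over all genes tested, threshold 0.05), with no covariate. A log2 fold change is given with its standard error. The 3 Soshiho-tang libraries entered no test. Intervals of single values are not given because PCR reads carry no molecular identifiers. The code was tested on simulated data. Replicates of a group differed by more than sampling noise in every pair (chi-square per degree of freedom at least 2.268).

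The genes and the lists of related genes and markers were chosen with earlier results of these data known, and the rule for named list genes took those with the largest summed change over the 6 comparisons of doses. Alternatives were other scalings, no filter, DESeq2 1.42.0, a fit of only the groups compared, the replicate number as a block, the MALAT1 class as a covariate, and leaving out each replicate. A marker gene of the lists is not reported here.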

Additional observations from a re-analysis of the deposited data

Results flagged for a closer look

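For 5 results the change between 500 and 20 µg/mL differed between a pair of extracts by a test of the difference itself (edgeR interaction contrast, adjusted over all genes). Menthae Herba and Saposhnikoviae Radix differed by 1.20 on the log2 scale for SLC39A10, by -0.68 for SLC30A10, by -0.39 for SLC30A1 and by 0.24 for SLC30A5. Soyo-san and Okbyeongpung-san differed by 0.58 for SLC39A10. In both pairs the libraries are of 1 MALAT1 class. For SLC30A10 the Menthae Herba change was -0.66 and the Saposhnikoviae Radix change 0.02.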

How the results depend on the processing

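Of 55 called values of the 10 genes, 33 kept their call under every alternative and none reversed. The 15 calls between 500 and 20 µg/mL were 14 to 17 under the alternatives and 12 to 15 with a replicate left out, and the 5 differences between extracts were 4 to 6 in both. Against vehicle at 500 µg/mL the 22 calls were 19 to 30, and 17 to 22 with a replicate left out; plain library totals gave the 30, of which 26 were higher and 4 lower. At 100 µg/mL the 10 calls became 20 on plain library totals and were 6 to 12 with a replicate left out. At 20 µg/mL the 3 calls became 15 on plain library totals, 5 with DESeq2, 1 in a fit of only the groups compared and 8 with the MALAT1 class as a covariate, and were 1 to 4 with a replicate left out. Plain totals moved the median of all genes by up to 0.11 on the log2 scale; for the others the cause was not tested. Correlations between libraries of the same replicate number ran from -0.105 to 0.195. The highest, between 500 and 20 µg/mL, were Saengmaek-san replicate 3 (0.195) and Guibi-tang replicates 3 and 1 (0.158 and 0.131). Across other numbers these reached at most -0.076, 0.066 and -0.003. All other same-number values were at most 0.055. In Saengmaek-san and Guibi-tang replicate 1 is wholly of the lower MALAT1 class and replicate 3 wholly of the higher. With the replicate block the counts were 15 for 500 against 20 µg/mL and 5 for differences between extracts. Against vehicle they were 22, 10 and 2 at 500, 100 and 20 µg/mL. With 3 libraries per group, 20 of the 55 calls were lost when 1 library was left out, as named beside each. Many of these were near 0.2 on the log2 scale. SLC39A10 was among them at 500 µg/mL against vehicle, in Okbyeongpung-san (0.41) and Saposhnikoviae Radix (0.40). So was its difference between Soyo-san and Okbyeongpung-san (0.58). Genes at 1 to 2 CPM, such as SLC30A3, are limited by depth.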
